A study of Mus musculus with 8 samples.

Results

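Chaperones and genes of the unfolded protein response were followed in cultured mouse hippocampal progenitor cells over 8 days. Members were the protein-coding genes outside the Y chromosome whose symbol begins with the name of a chaperone, co-chaperone, protein disulfide isomerase, prolyl isomerase, eIF2 factor or stress response gene (Hsp, Dnaj, Pdia, Cct, Atf, Eif2, Fkbp and the like). The rule used names only and no measured value, and it found 118 of the 9140 genes in the matrix. By function, 23 were J-domain co-chaperones, 12 endoplasmic reticulum (ER) chaperones and their partners, and 10 eIF2, eIF2B and related initiation factors. There were 10 cyclophilins, 9 FKBP isomerases, and 9 stress sensors, kinases and stress transcription factors, with which Ddit4l was counted. Further groups were 7 subunits of the CCT chaperonin, 7 cytosolic HSP70 and HSP110 proteins and partners, 7 mitochondrial chaperones and 6 ER-associated degradation genes. The smallest were 4 disulfide isomerases, 3 prolyl 4-hydroxylase genes, 3 other ATF factors and 2 cytosolic HSP90 genes. The remaining 6, Hspb11, Hspbap1, Ppip5k1, Ppip5k2, Atf7ip and Sel1l3, were caught by name only and are not chaperones. Of a list of 45 genes central to these pathways, 34 were members, and Hspa1a, Hspa1b, Hspb1, Sdf2l1, Dnajb1, Syvn1, Xbp1, Atf3, Atf4, Ddit4 and Ppia were not analysed here.

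The cells were neural stem and progenitor cells taken from the dentate gyrus of mouse embryos and grown with the growth factors EGF and FGF2. Day 0 cells were collected with the factors present, and days 2, 4 and 8 count from their withdrawal, which starts differentiation. Libraries labelled Kmt2d+/βgeo carry the gene-trap allele Mll2Gt(RRt024)Byg in 1 copy of Kmt2d, a histone H3 lysine 4 methyltransferase, and libraries labelled C57BL/6J wild type came from Kmt2d+/+ embryos. Females were C57BL/6J and mated with Kmt2d+/βgeo males, and the embryo age is day 18 in the labels. The methods of the study name the day before. There was 1 library for each label and day, 8 in all, with no replicate, so no test was run, and a culture or an animal cannot be told apart from a genotype or a day. The libraries of a label carry the same sample number on all 4 days, and whether they came from 1 embryo or culture is not stated in the sources used here. Each later day was set against the same day 0 library of its label.

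Chaperones bind unfolded protein and help it to its folded shape. HSP70 proteins such as HSPA8 take up short unfolded stretches with the help of J-domain partners, HSP90 proteins act on clients closer to their final shape, and the ring-shaped CCT chaperonin folds actin and tubulin among others. Inside the ER, HSPA5 (BiP) and HSP90B1 (GRP94) do similar work, calnexin and calreticulin hold newly made glycoproteins, and disulfide isomerases such as PDIA3 and PDIA6 pair cysteines. When unfolded protein builds up there, the sensors ATF6, IRE1 (Ern1) and PERK (Eif2ak3) start the unfolded protein response, which raises ER chaperone transcription, slows translation through phosphorylation of eIF2 and, if prolonged, induces the transcription factor CHOP (Ddit3). Dividing progenitors make much protein and have a large demand for folding.

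Promoter sequences are shown first because 6 of the ER members described below, 5 of the 12 ER chaperones and the disulfide isomerase Pdia6, hold a known regulatory sequence. The ER stress response element, written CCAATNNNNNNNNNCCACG and searched on both strands, is the sequence through which NF-Y and ATF6 act. RefSeq promoter windows (GRCm38.p6, the build of the files) from 250 bases before to 50 after a start site were matched for 98 of the 118 members by symbol. The element was found in 6 of these 98 (6.12%), against 37 of 27025 genes with a window (0.137%), and the holders were Hspa5, Hsp90b1, Calr, Canx, Pdia6 and Dnajc3. It was already known from genes of the ER stress response, so this contrast is a description and not a test. Hyou1 and Manf had no window in the table. Below, each stretch reads 5′ to 3′ along the gene's strand, lies wholly before the RefSeq start site of its window and has the element in capitals, which in Calr and in the later of the 2 matches of Hsp90b1 is its reverse complement.
Hspa5: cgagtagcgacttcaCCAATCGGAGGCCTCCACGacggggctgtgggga
Hsp90b1: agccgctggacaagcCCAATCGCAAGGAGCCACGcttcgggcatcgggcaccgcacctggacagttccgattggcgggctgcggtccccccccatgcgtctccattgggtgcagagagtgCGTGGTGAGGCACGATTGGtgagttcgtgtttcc
Calr: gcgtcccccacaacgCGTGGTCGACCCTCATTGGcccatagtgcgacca
Canx: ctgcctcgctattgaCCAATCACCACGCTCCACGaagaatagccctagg
Pdia6: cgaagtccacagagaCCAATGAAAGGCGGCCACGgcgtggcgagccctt
Dnajc3: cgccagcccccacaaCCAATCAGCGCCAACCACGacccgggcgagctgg
The stretches lie at chr2:34772010-34772058 (plus strand) for Hspa5, chr10:86705518-86705671 (minus strand) for Hsp90b1, chr8:84847060-84847108 (minus strand) for Calr, chr11:50325785-50325833 (minus strand) for Canx, chr12:17266476-17266524 (plus strand) for Pdia6 and chr14:118937812-118937860 (plus strand) for Dnajc3. A heat shock element, GAANNTTCNNGAA, the binding sequence of HSF1, was in the windows of 179 of the 27025 genes (0.662%) and of 4 matched members, Hspd1, Hspe1, Dnajb6 and Hsph1. In Hsph1 it lay after the start site. Hspd1 and Hspe1 are neighbours that start in opposite directions, and both windows held the same 2 overlapping matches, shown in capitals along the strand of Hspd1 at chr1:55088044-55088091 (minus strand). The gene table of the files places the 5′ ends of Hspa5 and Hspd1 further upstream than the RefSeq start sites used here, so these 2 printed stretches lie within the gene coordinates given below, while those of the 5 other ER members lie outside theirs.
Hspd1: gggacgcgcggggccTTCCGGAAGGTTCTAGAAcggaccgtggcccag
The cAMP response element TGACGTCA was in 549 genes' windows (2.03%), 1 of them a member's (Dnajc27), and TGACGTGG, bound by XBP1 and ATF6, was in 193 (0.714%), 1 of them a member's (Dnajc25). These 2 share their opening 6 letters, and the last 5 letters of TGACGTGG are the reverse complement of the CCACG that ends the ER stress response element. A match is a description of the letters and not of binding.

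Levels are mean normalised counts per cell, in which each cell sums to 8707.1, and a 3′ tag library counts 1 tag per RNA molecule, so no scaling by gene length applies. A level is a share of the cell's UMIs on the 9140 genes of the matrix, not of all its UMIs. A smaller share and fewer molecules per cell cannot be told apart. In every pair of values the Kmt2d+/βgeo library comes before the wild-type library. Ratios are log2 ratios of these means, and a member is called higher or lower at an absolute log2 ratio of at least 1, that is 2-fold, where its mean was at least 0.1 in either library. Libraries held 2534 to 4900 cells with median totals of 7926 to 23219 UMIs per cell, and the shallowest was Kmt2d+/βgeo day 8. On the genes of the matrix alone the medians ran from 3972 in that library to 11229.5 in Kmt2d+/βgeo day 0. Counting error alone gave the members' ratios a median 95% half-width of 0.0877 on the log2 scale, and culture and library error is unknown. Library pairs shared 0 to 10 cell barcodes. On GRCm38, Hspa8 lies at chr9:40800984-40810087, Hsp90ab1 at chr17:45567775-45573271, Hspa5 at chr2:34771970-34777547, Hspd1 at chr1:55077835-55088243, Ddit3 at chr10:127290774-127296288 and P4ha3 at chr7:100285520-100319699, and tags from the 3′ end of the transcript were counted. The day 4 libraries stood apart from the other pairs in how alike they were: 0 of 7459 genes differed 2-fold between the labels and the log2 ratios had an SD of 0.109, against 0.342 on day 0, 0.381 on day 2 and 0.492 on day 8. Whether both day 4 libraries came from 1 culture or genotype cannot be told from the files, so their likeness is not counted as independent agreement of the labels. Kmt2d itself was at 0.193 and 0.157 on day 0, 0.171 and 0.197 on day 2, 0.295 and 0.237 on day 4, and 0.290 and 0.241 on day 8. Its level thus did not separate the labels, and where its tags lie relative to the trap was not checked, so directions between labels are those of the libraries so labelled. Progenitor markers Fabp7 (34.6 and 27.0 on day 0) and Vim (35.4 and 30.3) were present. Olig2, the only gene of 8 on the oligodendrocyte list in the matrix, was at 5.53 and 8.09 on day 0, 4.76 and 6.36 on day 2, 2.31 and 2.18 on day 4, and 1.48 and 0.911 on day 8, thus below day 0 in all later libraries. The neuron list had 2 of 8 genes, with Map2 at 2.86 and 2.93 on day 0, 2.85 and 3.22 on day 2, 4.00 and 3.84 on day 4, and 3.90 and 3.50 on day 8 and Rbfox3 at 0.00536 and 0.0174 on day 0, 0.0356 and 0.0501 on day 2, 0.170 and 0.176 on day 4, and 0.113 and 0.0472 on day 8. The part of cell makeup in the members' changes over time was not tested. Nes, Sox2 and 3 other of the 9 listed progenitor markers, and all listed markers of microglia, endothelium, mesenchymal and ependymal cells, were not analysed here. The summed level of the dividing-cell genes Top2a, Smc4, Smc2 and Mcm6 was 8.56 and 7.52 on day 0, 1.21 and 1.08 on day 2, 1.25 and 1.21 on day 4, and 0.973 and 1.14 on day 8.

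Summed over the 118 members, the level was 272 and 267 on day 0, 212 and 190 on day 2, 165 and 159 on day 4, and 137 and 158 on day 8. The total was thus below day 0 on each later day in both labels, and lowest in Kmt2d+/βgeo on day 8. This sum leans on the 2 members with the highest day 0 levels. Hsp90ab1 went from 56.5 and 66.1 on day 0 to 13.0 and 13.8 on day 8, and Hspa8 from 27.2 and 27.8 to 4.84 and 13.6. The sum therefore does not describe the typical member, for which medians are given below. On day 2, 7 of 109 compared Kmt2d+/βgeo members were higher and 15 lower, where 10.7% and 6.74% of all 7502 compared genes were. In wild type 4 of 108 were higher and 11 lower, against 8.08% and 5.56% of all genes. The median log2 ratio of the members was -0.27 in Kmt2d+/βgeo and -0.27 in wild type, beside 0.05 and 0.01 over all genes.

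On day 4, 8 of 113 Kmt2d+/βgeo members were higher (14.8% of all genes) and 13 lower (6.61%), and 6 of 112 wild-type members were higher (11.9%) and 11 lower (6.60%). Here the median over all genes had itself moved, by 0.17 in Kmt2d+/βgeo and 0.09 in wild type, and relative to it 4 Kmt2d+/βgeo members were higher (11.5% of all genes on the same scale) and 29 lower (9.26%), and 4 wild-type members higher (10.4%) and 16 lower (8.10%). By day 8 the counts were 12 higher (19.0% of all genes) and 30 lower (13.9%) of 113 in Kmt2d+/βgeo, with a median of -0.39 beside an all-gene median of 0.11, and 14 higher (16.3%) and 16 lower (10.9%) of 112 in wild type, with a median of -0.13 beside 0.04. Hspd1 and P4hb were lower, and P4ha3 higher, in all 6 comparisons with day 0, where 2.37% and 3.87% of the 7159 genes compared in all 6 were. The 3 comparisons of a label share its day 0 library. The 2 lower members and 1 higher member, of 118, are not many beside those shares of all genes. Without the day 4 libraries, in the 4 remaining comparisons, Ppih joined the first 2 and Ddit3 joined P4ha3. For these 4 comparisons the share of all genes was not computed.

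**Figure D1:**
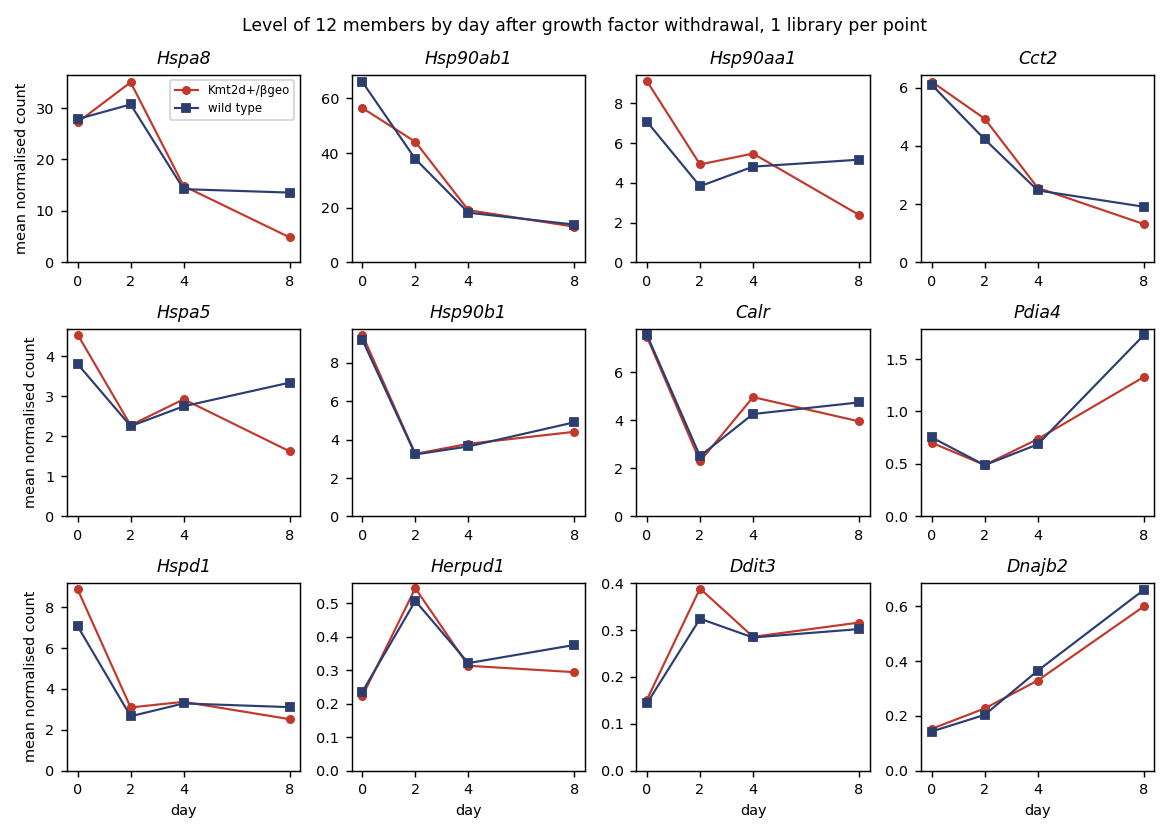
Mean normalised count per cell (y axes, each from 0) of 12 members on days 0, 2, 4 and 8 (x axes), with 1 library per point, circles for Kmt2d+/βgeo and squares for wild type. Hsp90b1, Calr, Hspa5 and Hspd1 lie below day 0 on day 2, Hsp90ab1 and Cct2 fall further below it on day 4, and Herpud1, Ddit3 and Dnajb2 are above their day 0 level on every later day.

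On day 0 the cytosolic HSP90 pair had the largest summed level of any role group, 65.6 and 73.2. Hsp90ab1, the constitutive form, was at 56.5 and 66.1 on day 0, 44.1 and 37.9 on day 2, 19.1 and 18.2 on day 4, and 13.0 and 13.8 on day 8. Each day lay below the one before in both labels, and the log2 ratios to day 0 were -0.36, -1.57 and -2.12 in Kmt2d+/βgeo and -0.80, -1.86 and -2.26 in wild type. Hsp90aa1, the stress-inducible form, was at 9.11 and 7.08 on day 0, 4.92 and 3.83 on day 2, 5.47 and 4.81 on day 4, and 2.38 and 5.16 on day 8. Its lowest library was Kmt2d+/βgeo day 8 (log2 ratio -1.94), whereas wild type on that day was within 2-fold of day 0 (-0.45).

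Hspa8, the constitutive HSP70 that also strips clathrin from vesicles, followed another course, at 27.2 and 27.8 on day 0, 35.0 and 30.7 on day 2, 14.8 and 14.2 on day 4, and 4.84 and 13.6 on day 8. It was highest on day 2, about as low in both labels on day 4, and on day 8 it had a log2 ratio to day 0 of -2.49 in Kmt2d+/βgeo and -1.04 in wild type. Hspa4, an HSP110-type exchange factor for HSP70, was at 2.90 and 2.61 on day 0, 1.36 and 1.35 on day 2, 2.39 and 2.30 on day 4, and 1.80 and 1.85 on day 8. This gene was lowest on day 2 in both labels, where its log2 ratio was -1.09 and -0.96. Hsph1, the other main HSP110, was at 0.515 and 0.393 on day 0, 0.290 and 0.312 on day 2, 0.592 and 0.553 on day 4, and 0.307 and 0.507 on day 8, so that on day 8 it was below day 0 in Kmt2d+/βgeo and above it in wild type.

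All 7 CCT subunits among the members were lower on day 8 in Kmt2d+/βgeo (median log2 ratio -2.22, range -2.81 to -1.24), and 4 of the 7, Cct2, Cct4, Cct5 and Cct7, in wild type (median -1.15), where 13.9% and 10.9% of all genes were. Cct2 was at 6.20 and 6.10 on day 0, 4.93 and 4.22 on day 2, 2.56 and 2.47 on day 4, and 1.31 and 1.91 on day 8. On day 2 none of the 7 had passed 2-fold in either label, and Cct4 was above its day 0 level, at 5.18 and 4.23 against 3.54 and 3.56. Cct8 was at 4.45 and 4.02 on day 0, 3.11 and 2.52 on day 2, 2.39 and 2.27 on day 4, and 0.958 and 2.01 on day 8. Its wild-type log2 ratio on day 8, -0.999, fell just short of 2-fold. Tcp1, the subunit CCT1, which the name rule does not catch, was at 4.44 and 4.66 on day 0, 2.36 and 2.27 on day 2, 1.88 and 1.82 on day 4, and 0.894 and 1.39 on day 8, also lowest on day 8.

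J-domain co-chaperones bring substrates to HSP70 and start its ATP hydrolysis. Of the 23, 5 were higher and 3 lower on day 8 in Kmt2d+/βgeo (19.0% and 13.9% of all genes were). In wild type 4 were higher and 2 lower (16.3% and 10.9%). Counts of this size are near those shares of all genes, so the genes named next do not set the group apart. Dnajb2, Dnajb4, Dnaja4 and Dnajc12 were higher in both labels, none of them reaching a level of 1, and Dnajc2, a ribosome-bound co-chaperone, and Dnajc25 were lower in both. Dnajc27 was higher and Dnajc7 lower in Kmt2d+/βgeo, with log2 ratios of 1.04 and -1.35, beside 0.67 and -0.81 in wild type. Dnajb2, which in neurons delivers clients for degradation, was at 0.152 and 0.143 on day 0, 0.227 and 0.203 on day 2, 0.329 and 0.365 on day 4, and 0.599 and 0.660 on day 8. Each later day lay above the one before in both labels, reaching log2 ratios of 1.98 and 2.21. Dnajb4 was at 0.130 and 0.156 on day 0, 0.206 and 0.231 on day 2, 0.284 and 0.288 on day 4, and 0.440 and 0.386 on day 8. Dnaja4, which acts with HSP70 in the cytosol, was at 0.0380 and 0.0703 on day 0, 0.0605 and 0.0868 on day 2, 0.131 and 0.136 on day 4, and 0.132 and 0.326 on day 8. Its highest library was wild type day 8, and Wdr61 overlaps it, so tags of the pair may not be told apart. Dnajc12, which helps fold aromatic amino acid hydroxylases, had log2 ratios on day 8 of 1.27 and 1.03. Dnaja1, a partner of HSPA8 and the most abundant of the 23, was at 4.05 and 3.02 on day 0, 3.30 and 2.95 on day 2, 3.72 and 3.71 on day 4, and 2.35 and 3.63 on day 8, within 2-fold of day 0 throughout.

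**Figure D2:**
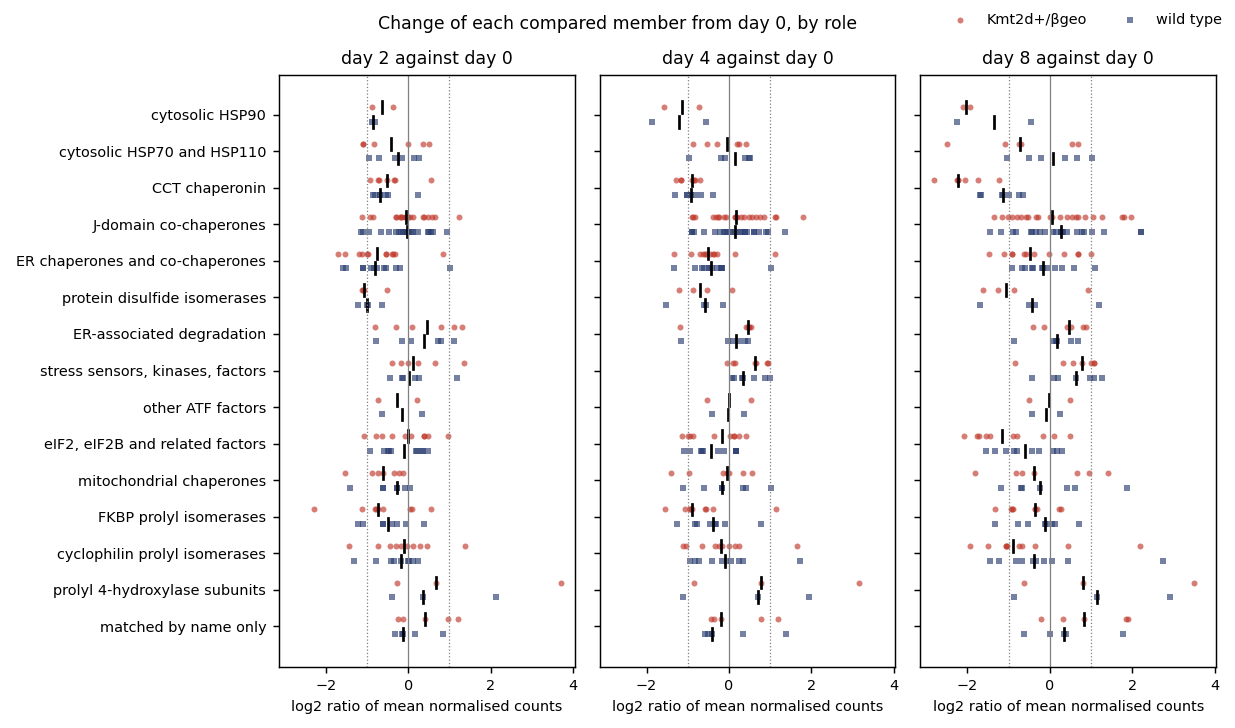
Log2 ratio of mean normalised counts to day 0 (x axes) of each compared member on days 2, 4 and 8, in rows by role, with circles for Kmt2d+/βgeo, squares for wild type, black bars at the median of each row and label, and dotted lines at 2-fold. ER chaperones, Dnajb9 excepted, and disulfide isomerases lie left of 0 on day 2, and the HSP90 and CCT rows lie furthest left on day 8, where the CCT median is -2.22 in Kmt2d+/βgeo and -1.15 in wild type.

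The ER chaperones were lowest as a group on day 2. Summed over 12 genes, their level was 32.8 and 32.2 on day 0, 16.2 and 16.1 on day 2, 22.0 and 20.6 on day 4, and 23.8 and 25.3 on day 8, so it was partly back by day 8. In each label 11 of the 12 were below their day 0 level on day 2, at whatever size, beside 65.1% and 66.7% of all compared members and 46.4% and 49.4% of all genes. Hsp90b1 was at 9.48 and 9.22 on day 0, 3.26 and 3.23 on day 2, 3.79 and 3.65 on day 4, and 4.41 and 4.91 on day 8. That is a log2 ratio on day 2 of -1.54 and -1.51, and the gene stayed below day 0 afterwards. An unrelated gene, 1810014B01Rik, overlaps it.

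Calr, the calcium-binding lectin chaperone calreticulin, was at 7.48 and 7.56 on day 0, 2.30 and 2.51 on day 2, 4.97 and 4.27 on day 4, and 3.96 and 4.75 on day 8. From a day 2 log2 ratio of -1.70 and -1.59 it came back to within 2-fold of day 0 by day 4. Hspa5, the main ER HSP70, was at 4.54 and 3.81 on day 0, 2.28 and 2.26 on day 2, 2.93 and 2.75 on day 4, and 1.62 and 3.34 on day 8. The labels were close to each other on days 2 and 4, and on day 8 the Kmt2d+/βgeo library was the lowest of the 8 for this gene while wild type was near its day 0 level. Hyou1, an ER HSP110, was low throughout, at 0.166 and 0.157 on day 0, 0.0731 and 0.0731 on day 2, 0.128 and 0.138 on day 4, and 0.267 and 0.193 on day 8, with its minimum on day 2 (log2 ratio -1.18 and -1.11).

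Canx, the membrane-bound partner of calreticulin, was the exception among the abundant ER chaperones. At 4.76 and 5.68 on day 0, 3.63 and 3.92 on day 2, 5.24 and 5.05 on day 4, and 7.63 and 6.19 on day 8, it was highest on day 8. Manf, a secreted ER stress factor, was at 1.35 and 1.13 on day 0, 0.686 and 0.528 on day 2, 0.707 and 0.738 on day 4, and 0.911 and 1.07 on day 8. Dnajc3, an ER co-chaperone also known as an inhibitor of PERK, was at 1.35 and 1.13 on day 0, 1.09 and 0.929 on day 2, 1.10 and 1.00 on day 4, and 1.72 and 1.69 on day 8. Dnajb9, a J-domain partner of HSPA5 and a known target of the IRE1 branch, was alone among the 12 in being above day 0 on every later day in both labels. Its level was 0.405 and 0.389 on day 0, 0.732 and 0.784 on day 2, 0.883 and 0.787 on day 4, and 0.809 and 0.837 on day 8, a log2 ratio on day 4 of 1.12 and 1.02. The 6 genes whose promoters were printed were each below day 0 on day 2 in both labels. So were 9 of the 10 ER chaperones and disulfide isomerases with no element found or no window, so this direction is not particular to the holders. The share of all genes below day 0 in both labels was not computed. On day 8 Canx and Dnajc3 were above their day 0 level.

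Disulfide isomerases resembled the ER chaperones on day 2, when all 4 were below day 0 in both labels. Of all genes, 46.4% in Kmt2d+/βgeo and 49.4% in wild type were below it, so a count from 4 genes is weak. P4hb, the prototype isomerase and also a subunit of prolyl 4-hydroxylase, was at 1.64 and 1.90 on day 0, 0.753 and 0.814 on day 2, 0.709 and 0.661 on day 4, and 0.685 and 0.591 on day 8. It was lower on every later day. Pdia6 was at 4.06 and 3.24 on day 0, 1.90 and 1.64 on day 2, 2.22 and 2.12 on day 4, and 1.32 and 2.28 on day 8. Pdia3, the isomerase that works with calnexin and calreticulin, was at 3.74 and 3.56 on day 0, 1.79 and 1.78 on day 2, 2.57 and 2.43 on day 4, and 2.04 and 2.77 on day 8. On day 8 both were below the wild-type level in the Kmt2d+/βgeo library, by less than 2-fold. Pdia4 was at 0.703 and 0.753 on day 0, 0.490 and 0.489 on day 2, 0.737 and 0.686 on day 4, and 1.33 and 1.73 on day 8. It too was below the wild-type level in Kmt2d+/βgeo on day 8, by less than 2-fold, but unlike the other isomerases it was above its day 0 level then in both labels.

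ER-associated degradation returns misfolded protein to the cytosol for the proteasome. Herpud1, which organises the degradation complex and is induced by ER stress, was at 0.222 and 0.235 on day 0, 0.545 and 0.507 on day 2, 0.313 and 0.321 on day 4, and 0.294 and 0.376 on day 8. Its peak fell on day 2, with log2 ratios of 1.296 and 1.11, when the summed level of the ER chaperones was at its minimum. Edem1, which picks out misfolded glycoproteins, was at 0.150 and 0.157 on day 0, 0.0857 and 0.0907 on day 2, 0.0655 and 0.0699 on day 4, and 0.113 and 0.0854 on day 8, close to the lower limit for comparison. Herpud2, the paralogue of Herpud1, was at 0.422 and 0.588 on day 0, 0.918 and 0.968 on day 2, 0.615 and 0.577 on day 4, and 0.732 and 0.629 on day 8. It too was highest on day 2, by a log2 ratio of 1.12 in Kmt2d+/βgeo and 0.72 in wild type. Sel1l, the scaffold of the complex, was at 0.399 and 0.473 on day 0, 0.429 and 0.493 on day 2, 0.559 and 0.560 on day 4, and 0.565 and 0.531 on day 8, within 2-fold of day 0 throughout.

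Among stress sensors and factors, Ddit3 (CHOP) was at 0.152 and 0.143 on day 0, 0.389 and 0.324 on day 2, 0.286 and 0.284 on day 4, and 0.316 and 0.302 on day 8. It was highest on day 2 in both labels, a log2 ratio of 1.36 and 1.18. Atf5, a transcription factor translated under stress, was at 0.337 and 0.393 on day 0, 0.395 and 0.360 on day 2, 0.527 and 0.492 on day 4, and 0.709 and 0.770 on day 8, highest on day 8. The sensors themselves were low, with Atf6 at 0.199 and 0.201 on day 0, 0.197 and 0.225 on day 2, 0.214 and 0.211 on day 4, and 0.292 and 0.229 on day 8. Eif2ak3 (PERK) was at 0.0699 and 0.0647 on day 0, 0.0603 and 0.0631 on day 2, 0.0692 and 0.0544 on day 4, and 0.120 and 0.0759 on day 8. Ern1 (IRE1) had a mean under 0.1 in all 8 libraries, from 0.0292 in wild type day 2 to 0.0585 in Kmt2d+/βgeo day 8, and was not compared. Eif2ak2 (PKR), the eIF2 kinase that answers to double-stranded RNA, was at 0.326 and 0.329 on day 0, 0.249 and 0.241 on day 2, 0.629 and 0.606 on day 4, and 0.408 and 0.510 on day 8, lowest on day 2 and highest on day 4 in both labels. Ddit4l, a paralogue of the mTORC1 inhibitor DDIT4, was at 0.834 and 0.524 on day 0, 1.32 and 0.631 on day 2, 0.800 and 0.803 on day 4, and 1.66 and 1.25 on day 8.

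The translation factor eIF2, which carries the initiator tRNA, and its exchange factor eIF2B had 8 subunit genes among the members. On day 8, 4 of the 8 were lower in Kmt2d+/βgeo and 2 in wild type (13.9% and 10.9% of all genes were), against 1 and 0 on day 2 (6.74% and 5.56%) and 1 and 1 on day 4 (6.61% and 6.60%). Eif2a and Eif2d share the prefix but encode separate initiation factors, and Eif2a was also lower on day 8, with log2 ratios of -1.44 and -1.33. Eif2s1, the α subunit that PERK phosphorylates, was at 1.76 and 1.28 on day 0, 0.835 and 0.672 on day 2, 0.801 and 0.803 on day 4, and 0.519 and 0.738 on day 8. Eif2s2, the β subunit, was at 3.42 and 3.63 on day 0, 2.19 and 2.62 on day 2, 1.71 and 1.69 on day 4, and 1.17 and 1.25 on day 8. Both were below their day 0 level in all later libraries.

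Mitochondrial chaperones split. Hspd1 (HSP60), which folds imported protein with its lid Hspe1 (HSP10), was at 8.89 and 7.08 on day 0, 3.09 and 2.66 on day 2, 3.37 and 3.29 on day 4, and 2.52 and 3.11 on day 8. It was lower in all later libraries, with log2 ratios from -1.82 to -1.11. Hspe1, from the same promoter region, was at 10.5 and 8.24 on day 0, 5.70 and 5.44 on day 2, 5.38 and 5.45 on day 4, and 7.95 and 5.10 on day 8. It stayed within 2-fold of day 0, so the 2 genes with the printed heat shock element did not move by the same size, and the annotated genes overlap. Hspa9 (mortalin), the HSP70 that pulls protein into the matrix, was at 2.55 and 2.40 on day 0, 1.52 and 1.58 on day 2, 2.29 and 2.13 on day 4, and 1.45 and 2.02 on day 8. Like Hspe1 it stayed within 2-fold of day 0, with its day 2 level below that of day 0 in both labels. Dnajc15, a J-domain protein of the inner membrane, was at 0.962 and 0.739 on day 0, 0.755 and 0.706 on day 2, 1.42 and 1.49 on day 4, and 2.57 and 2.73 on day 8, and it was highest on day 8.

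Prolyl isomerases turn proline bonds during folding. Ppib, the ER cyclophilin, was at 10.5 and 8.79 on day 0, 10.3 and 8.97 on day 2, 9.39 and 9.12 on day 4, and 8.17 and 9.07 on day 8. No later library was 2-fold from the day 0 library of its label. Fkbp1a, the FK506 target FKBP12, was at 6.19 and 8.16 on day 0, 3.62 and 3.84 on day 2, 3.33 and 3.40 on day 4, and 4.98 and 3.23 on day 8. On day 8 it had a log2 ratio of -0.32 in Kmt2d+/βgeo and -1.34 in wild type. Fkbp5, an HSP90 partner that glucocorticoids induce, was at 0.132 and 0.0819 on day 0, 0.0272 and 0.0266 on day 2, 0.0451 and 0.0343 on day 4, and 0.0696 and 0.0508 on day 8. Only Kmt2d+/βgeo day 0 was above the minimum of 0.1 for this gene, and there the counting interval of its day 2 log2 ratio of summed UMIs was -2.59 to -2.04 from 130 and 831 estimated UMIs. Ppih, a cyclophilin of the spliceosome, was at 0.820 and 0.677 on day 0, 0.304 and 0.271 on day 2, 0.395 and 0.412 on day 4, and 0.213 and 0.290 on day 8. Ppil6 was low but above its day 0 level in all later libraries, at 0.0400 and 0.0403 on day 0, 0.104 and 0.0914 on day 2, 0.126 and 0.134 on day 4, and 0.182 and 0.271 on day 8, and on day 2 wild type was under the minimum for comparison.

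P4ha3 had the largest ratio of means of any member in each of the 6 comparisons with day 0, at levels near the minimum for comparison. It encodes a catalytic subunit of collagen prolyl 4-hydroxylase and was at 0.0138 and 0.0295 on day 0, 0.180 and 0.129 on day 2, 0.123 and 0.113 on day 4, and 0.157 and 0.222 on day 8. The day 2 log2 ratio was 3.71 in Kmt2d+/βgeo and 2.12 in wild type, from summed day 0 counts of only 75 and 188 estimated UMIs, and the counting intervals of the ratios of summed UMIs were 3.53 to 4.24 and 1.91 to 2.40. With a pseudocount of 0.1 its 6 log2 ratios ran from 0.72 to 1.31, 3 of them under 2-fold, and it stayed the most raised member only in Kmt2d+/βgeo on days 2 and 4. As differences of mean log2 values they ran from 0.07 to 0.16, below other members in all 6. P4ha1, the more usual catalytic subunit, was at 0.425 and 0.502 on day 0, 0.353 and 0.386 on day 2, 0.235 and 0.232 on day 4, and 0.273 and 0.277 on day 8, below day 0 in all later libraries. Of the 6 genes caught by name only, Ppip5k1, an inositol pyrophosphate kinase, was higher in both labels on days 4 and 8, at 0.0488 and 0.0470 on day 0, 0.0753 and 0.0725 on day 2, 0.111 and 0.123 on day 4, and 0.182 and 0.162 on day 8. Map1a overlaps it. Hspb11, an intraflagellar transport protein, had the highest level of the 6 on day 0, 1.29 and 1.28, and stayed within 2-fold of it.

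Between the labels few members were past 2-fold before day 8. On day 0, 0 of 106 compared members were 2-fold higher or lower, where 0.674% and 0.871% of all genes were. On day 2, 2 of 105 were higher in Kmt2d+/βgeo (1.68% of all genes) and 0 lower (1.15%). The 2 were Ddit4l, with a log2 ratio of 1.06, and Sel1l3, with 1.12, a gene caught by name only whose level was 0.228 and 0.307 on day 0, 0.532 and 0.245 on day 2, 0.177 and 0.205 on day 4, and 0.820 and 0.387 on day 8. Neither was past 2-fold on day 2 with a pseudocount of 0.1 or as a difference of mean log2 values. On day 4, 0 of 111 differed in either direction, as did 0% of all genes.

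On day 8, 1 of 113 members, Sel1l3, was higher in Kmt2d+/βgeo (2.06% of all genes), with a log2 ratio of 1.08, and 6 were lower (2.81%). These 6 were Hspa8 (-1.49), Dnaja4 (-1.30), Hsp90aa1 (-1.12), Cct8 (-1.07), Hspa5 (-1.04) and Cct3 (-1.02), so they included the main cytosolic and the main ER HSP70. For Hspa8 the summed counts were 6815 and 35479 estimated UMIs with a log2 ratio of summed UMIs of -1.42, counting interval -1.46 to -1.38. That ratio weights cells by their depth and differs from the ratio of means by more than counting error. For Dnaja4 the sums were 180 and 882, their log2 ratio -1.33 and the interval -1.57 to -1.10. All 7 CCT subunits and 7 of 8 eIF2 and eIF2B subunits were below the wild-type level on that day, with medians of -0.89 and -0.54 beside an all-gene median of 0.01. At any size, 61.9% of compared members were below it, beside 48.8% of all genes. Day 2 went the other way. All 7 CCT subunits were then above the wild-type level (median 0.29), and 3 of 8 eIF2 and eIF2B subunits were below it (median 0.14). Of members 30.5% were below it on day 2, beside 50.4% of all genes, and 39.6% on day 0, beside 55.5%.

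The Kmt2d+/βgeo day 8 library was the shallowest, and drawing every cell to 3000 UMIs left out 764 of its 2965 cells. Hspa8, Dnaja4 and Hsp90aa1 then had log2 ratios of -1.39, -1.32 and -1.08, while Hspa5, Cct3 and Cct8 came to -0.96, -0.94 and -0.96. The levels were already scaled to 1 total per cell, and drawing keeps a cell's expected shares. The step therefore shows the effect of the cells left out and of the draw, and cannot show the part of depth. The Kmt2d+/βgeo day 8 library also differed from wild type in the astrocyte list, of which 6 of 9 genes were in the matrix. Their summed level was 24.2 and 17.8 on day 0, 228 and 181 on day 2, 267 and 247 on day 4, and 110 and 250 on day 8, mostly Apoe, which was at 94.7 and 230 on day 8. Gja1, S100b, Aldh1l1 and Slc1a3 were below the wild-type level too, whereas Slc1a2 was above it (2.08 and 1.53), as were Olig2 and Rbfox3. On day 2 the higher Kmt2d+/βgeo sum of the astrocyte list came from Apoe alone (210 and 150). Gja1, S100b, Aldh1l1, Slc1a2 (2.19 and 3.95) and Slc1a3 (14.1 and 23.3) were below the wild-type level on that day. The 4 progenitor markers summed to 71.8 and 60.2 on day 0, 128 and 95.0 on day 2, 75.0 and 72.5 on day 4, and 66.3 and 109 on day 8. The day 8 gap came from Vim (43.7 and 86.6), while Fabp7 (15.02 and 15.5), Sox9 (7.16 and 6.91) and Pax6 (0.366 and 0.386) were close. The part of depth, cell makeup or culture in the day 8 differences was not tested.

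**Figure D3:**
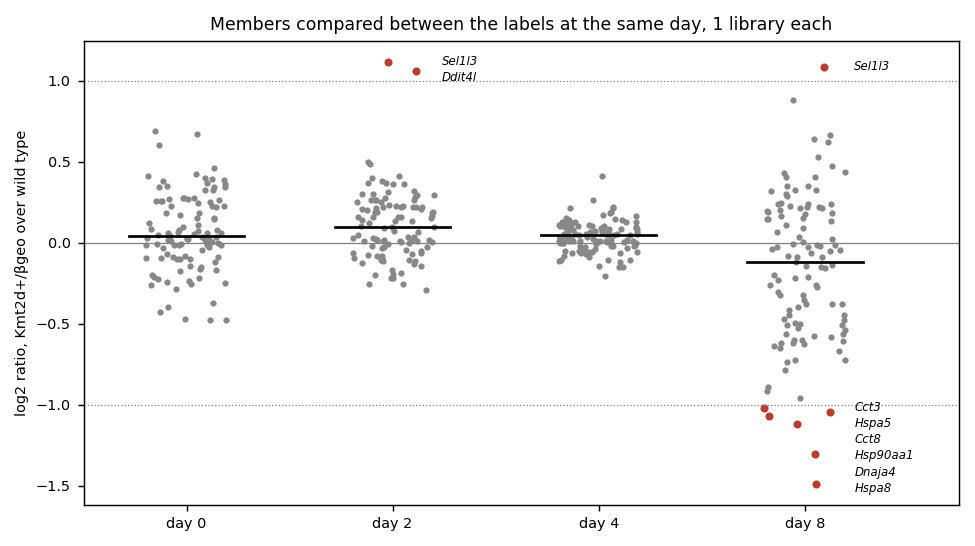
Log2 ratio between the labels (y axis, Kmt2d+/βgeo divided by wild type) of each compared member on days 0, 2, 4 and 8, with 1 library per label and day, black bars at the median and dotted lines at 2-fold. Named members, listed from the highest to the lowest ratio, are past 2-fold: Sel1l3 and Ddit4l on day 2, and on day 8 Sel1l3 above and 6 chaperones below, while the day 4 points lie closest to 0.

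The members were also set against the detection of Top2a within day 0, when 37.4% of thinned Kmt2d+/βgeo cells and 34.3% of wild-type cells had a UMI of Top2a, the topoisomerase of dividing cells. This splits cells by 1 sparse gene, so cells without a UMI include dividing ones, and free RNA can give a UMI to a cell that does not divide. In the 6 later libraries, at the same depth, 1.04% to 1.94% of cells had one, and the share from free RNA on day 0 itself was not measured. Among 56 members with a mean thinned count of at least 0.2, 8 were higher by a log2 ratio of at least 0.2 in both libraries (12.7% of 2430 genes were) and 1 lower (10.0%). The count of higher members was thus near the share of all genes, and that of lower members was below it. Ppih stood apart, with a mean thinned count of 0.410 against 0.209 in the Kmt2d+/βgeo library and 0.330 against 0.168 in the wild-type library, a log2 ratio of 0.97 and 0.98. Hsp90aa1 followed with 0.42 and 0.47, then Fkbp3, a nuclear FKBP, with 0.39 and 0.38, Dnajb11, an HSPA5 partner, with 0.44 and 0.25, and Hspa14 with 0.34 and 0.36. Manf, Dnajc3 and Calr, all of the ER, had 0.24 and 0.38, 0.26 and 0.34 and 0.23 and 0.23. None of the 7 CCT subunits was among them, and Hsp90ab1, the member with the highest level, had -0.08 and -0.11. The member on the low side was Eif2a, with -0.20 and -0.23.

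**Figure D4:**
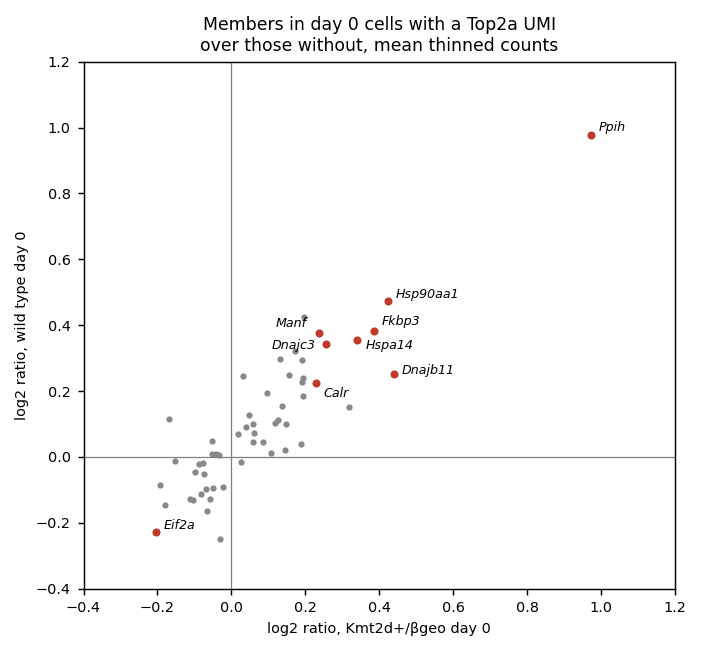
Log2 ratio of mean thinned counts in day 0 cells with a Top2a UMI over those without, in Kmt2d+/βgeo (x axis) and wild type (y axis), for the 56 members with a mean thinned count of at least 0.2. Named points are past 0.2 in both libraries, 8 above and 1 below (12.7% and 10.0% of 2430 genes were). Ppih lies far above the rest at 0.97 and 0.98.

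Other genes of the same systems came from a list of 87, of which 61 were in the matrix. On day 2, 2 of 57 were higher (10.7% of all genes) and 4 lower (6.74%) in Kmt2d+/βgeo, and 3 of 57 higher (8.08%) and 3 lower (5.56%) in wild type. On day 4, 5 of 57 were higher (14.8%) and 6 lower (6.61%) in Kmt2d+/βgeo, and 6 of 57 higher (11.9%) and 8 lower (6.60%) in wild type. By day 8, 5 of 57 were higher (19.0%) and 10 lower (13.9%) in Kmt2d+/βgeo, and 5 of 58 higher (16.3%) and 9 lower (10.9%) in wild type. Cryab, the small heat shock protein αB-crystallin that astrocytes and oligodendrocytes express strongly, was at 2.30 and 1.25 on day 0, 13.0 and 8.17 on day 2, 17.6 and 17.8 on day 4, and 21.8 and 21.6 on day 8. Slc7a11, the cystine carrier induced by ATF4, was at 0.0530 and 0.0485 on day 0, 0.144 and 0.206 on day 2, 0.576 and 0.627 on day 4, and 0.927 and 0.854 on day 8. Both were higher in all 6 comparisons with day 0, whereas Mthfd2, a mitochondrial folate enzyme that ATF4 also induces and that dividing cells express, was lower in all 6, at 0.360 and 0.289 on day 0, 0.0439 and 0.0309 on day 2, 0.0539 and 0.0508 on day 4, and 0.0563 and 0.0630 on day 8. On day 8, Asns, the ATF4 target asparagine synthetase, was at 0.161 and 0.395 against 0.879 and 0.829 on day 0. Between the labels 0 of 56 compared list genes were past 2-fold on days 0, 2 and 4. On day 8, 1 of 57 was higher in Kmt2d+/βgeo (2.06% of all genes), the heat shock factor Hsf2 (1.02), and 4 were lower (2.81%). These were Phgdh (-1.63), which opens serine synthesis, Asns (-1.29), the HSP70 partner Bag3 (-1.32) and Rcn2 (-1.28), a calcium-binding protein of the ER.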

How the data were processed

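Single-cell RNA was measured in 8 libraries (Chromium 3′ kit v3), 1 for each label and day. Per the study's methods and the labels, the authors counted spliced molecules with Alevin (Salmon 1.3.0) on GRCm38, removed poor cells and likely doublets, divided each cell's counts by a library size factor and took logs. The deposited values are thus on a log2 scale and cover 9140 genes in 30408 cells, and the deposited cell table gives each cell's total UMIs as an estimated count. Each cell's back-transformed values (2 to the power of the value, minus 1) summed to 8707.1, and 86.8% of the values above 0 came to a whole number of UMIs with a tolerance of 0.01. The median total UMIs per cell ran from 7926 to 23219 and was lowest in Kmt2d+/βgeo day 8.

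From these, mean normalised counts per library, log2 ratios of means (minimum mean 0.1 in either library) and calls at an absolute ratio of 1 were computed over all genes with Python 3.11.15, numpy 2.4.6, scipy 1.17.1 and pandas 2.3.3. Exact conditional 95% intervals of summed estimated UMIs, rounded to whole numbers, cover counting error only. Cells were also thinned without replacement to 3000 UMIs of the matrix genes, leaving out shallower cells. No cells were typed and no test was run. The ratio step was checked on simulated data with planted changes larger than 2-fold, in genes well above the minimum mean. Changes near 2-fold or in genes near the minimum were not simulated. Promoter windows came from RefSeq (GRCm38.p6).

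Members named were a fixed role list, the 5 highest and 5 lowest past 2-fold in each comparison, those past 2-fold in all 6 comparisons with day 0 and the highest of each role group. Other members of a small group, genes flagged for opposite directions and those past the Top2a threshold were named after their values were seen. Members, lists and motifs were chosen with earlier results of these data known, and the Top2a ratio of 0.2 and the limits for opposite directions were set with the data in view. Alternatives were median-centred ratios, a minimum mean of 0.5, a pseudocount of 0.1 with no minimum, thinned cells and the difference of mean log2 values, and, added after seeing the data, leaving out day 4.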

Additional observations from a re-analysis of the deposited data

Results flagged for a closer look

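In 4 members the labels moved in opposite directions from day 0, by a log2 ratio of at least 0.25 in each label and 0.5 in the larger. The share of all genes that meet these limits was not computed, so the 4 cannot be called many or few. With 1 library per label and day the difference was not tested. Sel1l3, a membrane protein caught by name only, had a log2 ratio on day 2 of 1.22 in Kmt2d+/βgeo and -0.32 in wild type. On day 8, Dnajc17, a J-domain protein linked to splicing, had -0.53 in Kmt2d+/βgeo and 0.78 in wild type. The HSP70 partner Dnaja1 had -0.79 and 0.26, and the HSP110 gene Hsph1 -0.75 and 0.37. Dnajc17 overlaps Zfyve19 and Dnaja1 overlaps Smu1 in the annotation. The day 8 differences involve the shallowest library, Kmt2d+/βgeo day 8, and its part in them was not tested.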

How the results depend on the processing

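With 1 library per label and day no replicate could be left out. The values come from no test. No pairing by sample number was possible across the genotypes, because the numbers in the labels differ between them and none is shared. A fit with label and day as additive terms, which would take the days as replicates of a label, was not run. In the order Kmt2d+/βgeo days 2, 4 and 8, then wild type days 2, 4 and 8, the members past 2-fold from day 0 were 22, 21, 42, 15, 17 and 30. The difference of mean log2 values, which is compressed for low genes, gave 3, 4, 15, 3, 4 and 9, and of these 0 were higher except 1 in wild type on day 8. A pseudocount of 0.1 with no minimum gave 10 and 9 in Kmt2d+/βgeo on days 2 and 4 and 6 and 7 in wild type, with 2, 0, 0 and 0 of these higher in place of 7, 8, 4 and 6. A minimum mean of 0.5, which compares fewer genes, gave 14 and 12 in Kmt2d+/βgeo on days 2 and 4 and 9 in wild type on day 2, with 3, 1 and 2 of these higher. The counts of higher members thus depend on these settings more than those of lower members. Shares of all genes were not computed at these settings, so whether this is particular to the members is not known. Median-centring gave 33 in Kmt2d+/βgeo on day 4. Between the labels, both the mean log2 difference and the pseudocount gave 0 in place of 2 on day 2, and 2 in place of 7 on day 8. On day 8 the higher members were 4 in Kmt2d+/βgeo and 6 in wild type with the higher minimum and 6 and 7 with the pseudocount, in place of 12 and 14, and on day 4 in wild type 2 with the higher minimum in place of 6. Other totals of higher and lower members together stayed within 1.5 times.

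Of 120 ratios past 2-fold of named members, 0 changed sign under any of the 5 alternatives. The pseudocount and the higher minimum cannot change a sign. Median-centring moved ratios by 0.17 or less, too little to reverse one past 2-fold, and thinning keeps each cell's expected shares. The count of 0 was thus largely fixed in advance and says little about how stable the ratios are. Of the 120, 111 stayed past 2-fold with thinned cells, 112 with median-centring, 69 with the pseudocount and 36 as differences of mean log2 values. The higher minimum kept 83, whose values do not change, and left 37 uncompared. Without the day 4 libraries, an alternative chosen after seeing the data, 2 members in place of 1 were higher and 3 in place of 2 lower in every comparison with day 0. The share of all genes was not computed for this alternative. Ern1 was under the minimum in all 8 libraries.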

Other observations

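Spread across cells was described by the Fano factor, the variance of the thinned count over its mean, which is near 1 for counting error alone. Among members with a mean thinned count of at least 0.2, its median per library ran from 1.04 to 1.11, beside 1.05 to 1.07 over all such genes. Ddit4l had the highest single value, 3.74 in Kmt2d+/βgeo day 8 at a mean of 0.568, against 1.80 at a mean of 0.452 in wild type day 8 and 1.43 to 1.58 in the 5 other libraries where it passed the minimum. Hsp90ab1 ran from 1.47 to 2.60 and Hspa8 from 1.51 to 2.34, both highest on day 2. Pairs of members correlated weakly over cells of a library, with medians over all pairs of 0.00192 to 0.0116. Listed by their median over the 8 libraries, the highest pairs were Hspa5 with Calr (0.142, range 0.0702 to 0.217), Hspa8 with Hsp90ab1 (0.135, range 0.0794 to 0.431) and Calr with Hsp90b1 (0.126, range 0.09996 to 0.257). Pairs of CCT subunits had medians of 0.0213 to 0.0823 per library, from 21 pairs. Cells of a library share its depth and makeup, and in sparse counts correlations of this size are a description only.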
